A study of Mus musculus with 12 samples.

Results

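The genes described here are those of cholesterol synthesis and of its regulation. The list holds 30 genes: the enzymes of the mevalonate and sterol steps, the proteins that control the sterol response, and the carriers and exporters of cholesterol. Members were taken by symbol and not by a cut on their values, although earlier results of these data were known. Each was read from its brightest probe set with a single gene symbol. Of the 30, 27 could be read, among 19938 named genes on the array. Acat2, which joins acetyl-CoA units at the entry of the pathway, Soat1, which esterifies cholesterol, and Nr1h2, an oxysterol receptor, were not analysed here.

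The samples were thymic epithelium/stroma of FCG pups at day 7, hybridized to 12 Affymetrix mouse whole-transcript arrays. In FCG mice, here of C57BL/6J background, the Y chromosome lacks Sry and an autosomal Sry transgene decides the gonad, so testes or ovaries can occur with either XX or XY. There were 3 XXF arrays (XX with ovaries, no Sry) and 3 XYF arrays (XY with ovaries, Sry deleted from the Y). There were 4 XXM arrays (XX with testes, autosomal Sry transgene) and 2 XYM arrays (XY with testes, autosomal Sry transgene, Sry deleted from the Y). All 4 genotypes were untreated on these arrays and were of the same age, and since it is not stated that every array came from a different pup, p-values here cover only the spread from array to array. Thymocytes had been washed out of the tissue, yet 13 of 13 measured thymocyte markers lay above the background reference defined below, as did 9 of 9 markers of cortical and 8 of 9 markers of medullary thymic epithelium. In such bulk tissue, fewer cells of a type and less RNA per cell cannot be told apart.

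Cells make cholesterol from acetyl-CoA through mevalonate, the isoprenoid diphosphates, squalene and lanosterol. When sterols in the endoplasmic reticulum are scarce, Scap escorts the SREBP transcription factors to the Golgi, where they are cut and released to the nucleus to switch on the genes of synthesis and uptake; when sterols are plentiful, the Insig proteins hold Scap back and the oxysterol receptors of the LXR family switch on the exporters Abca1 and Abcg1. Cholesterol is the raw material of the steroid hormones, whose synthesis in the thymic epithelium was the question behind these arrays.

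Nuclear SREBP binds the sterol regulatory element and commonly works with NF-Y, which binds CCAAT, and with Sp1. RefSeq promoter windows (GRCm38.p6, from 250 bases before the start of a gene to 50 bases after it) were at hand for 24 of the 30 genes. The element TCACNCCA, read on both strands, occurred in 2 of the 24 genes, or 8.33%, against 4.97% of 27025 genes with such windows. CCAAT, which reads ATTGG on the opposite strand, occurred in 19 of the 24, or 79.2%, against 41.1% of all genes. The Sp1 letters GGGCGG, again on both strands, occurred in 21 of the 24, or 87.5%, against 38.2%. These matches describe letters in a window and are not measured binding sites. The reference was all genes with windows, whether or not they had signal in this tissue. Whether the higher shares are particular to this pathway was not tested. The 200 bases upstream of 6 genes are printed 5′ to 3′ along the gene's strand, with TCACNCCA and CCAAT in capitals on either strand. No base of these sequences belonged to both motifs. Hmgcs1 (chr13:119690151-119690350, plus strand) and Srebf2 (chr15:82147069-82147268, plus strand) are shown as the members with a TCACNCCA match, which began at -137 and -162 from the start. Idi1 (chr13:8885406-8885605, plus strand) and Nsdhl (chrX:72918321-72918520, plus strand) are shown because their signals, like that of Hmgcs1, were lower on arrays 9 to 12 than on the others, and Mvk (chr5:114444069-114444268, plus strand) and Mvd (chr8:122443423-122443622, minus strand) because theirs did not.
Hmgcs1: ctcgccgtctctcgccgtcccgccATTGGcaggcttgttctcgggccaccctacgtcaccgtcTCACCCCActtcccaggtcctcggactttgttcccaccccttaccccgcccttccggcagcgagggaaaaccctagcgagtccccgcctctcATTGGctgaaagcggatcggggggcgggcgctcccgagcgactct
Srebf2: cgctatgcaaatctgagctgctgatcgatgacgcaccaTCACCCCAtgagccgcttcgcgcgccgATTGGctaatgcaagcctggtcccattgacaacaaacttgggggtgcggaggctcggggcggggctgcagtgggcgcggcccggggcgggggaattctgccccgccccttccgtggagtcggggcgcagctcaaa
Idi1: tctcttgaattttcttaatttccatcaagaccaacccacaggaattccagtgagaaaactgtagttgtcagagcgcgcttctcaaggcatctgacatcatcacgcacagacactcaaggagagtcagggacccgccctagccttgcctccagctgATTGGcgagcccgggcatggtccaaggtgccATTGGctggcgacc
Nsdhl: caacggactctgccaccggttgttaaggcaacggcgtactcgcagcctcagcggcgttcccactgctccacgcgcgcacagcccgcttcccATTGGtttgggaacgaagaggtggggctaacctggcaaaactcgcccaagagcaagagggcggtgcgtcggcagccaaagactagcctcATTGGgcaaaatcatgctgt
Mvk: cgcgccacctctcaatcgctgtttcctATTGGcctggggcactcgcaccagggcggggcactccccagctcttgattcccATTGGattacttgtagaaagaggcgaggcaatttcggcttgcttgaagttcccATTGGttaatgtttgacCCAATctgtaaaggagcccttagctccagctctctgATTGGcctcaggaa
Mvd: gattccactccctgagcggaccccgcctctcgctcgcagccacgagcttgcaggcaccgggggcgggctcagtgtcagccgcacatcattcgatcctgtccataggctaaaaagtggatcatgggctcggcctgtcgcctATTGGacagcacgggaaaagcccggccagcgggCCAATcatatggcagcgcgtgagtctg
CCAAT occurred 2 times in the stretches of Hmgcs1, Idi1, Nsdhl and Mvd, 5 times in that of Mvk and once in that of Srebf2, so it stood before genes with and without that difference. The sequences of Npc1, Sqle, Fdps, Fdft1, Stard4 and Abcg1 were not analysed here.

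With no detection call in the data, the signal of 1035 olfactory receptor probe sets, genes largely silent outside the nose, served as the background reference. Its 95th percentile was 309.5 (signal is the authors' linear intensity, in arbitrary units), and 26 of the 27 genes had a mean signal over the 12 arrays above it, against 56.5% of all named genes. The exception was Pmvk, phosphomevalonate kinase, with a mean of 297 and a range of 259 to 349. Nr1h3, the LXR alpha receptor of macrophages and liver, lay just above the reference with a mean of 312 and a range of 293 to 346. Probe sets differ in brightness for the same amount of RNA, so signals are not ranked between genes. The enzymes varied unequally between arrays. From the lowest to the highest array, the signal of Mvk, mevalonate kinase, spanned a factor of 1.17, and that of Idi1, which isomerizes isopentenyl diphosphate, spanned a factor of 1.89.

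Whether gonadal sex or sex chromosome complement changed this pathway was tested with limma on log2 signals, with Benjamini-Hochberg adjustment over all 35556 probe sets. No member was called different between genotypes. Of the 27 genes, 0 passed an adjusted p of 0.05 for gonadal sex, against 0.00281% of all probe sets, 0 for chromosome complement, against 0.0366%, 0 for their interaction, against 0.0%, and 0 for any difference among the 4 genotypes, against 0.0281%. At an unadjusted p under 0.05 the counts were also 0 for sex, complement and interaction, where 3.03%, 2.55% and 1.54% of all probe sets passed in limma. The two-factor test named in the methods called 0 members for sex, complement or interaction after adjustment. The 95% intervals of the 27 genes ran no lower than -0.54 and no higher than 0.37 (log2) for testes minus ovaries, and from -0.51 to 0.34 for XY minus XX, so larger differences lay outside every interval.

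**Figure D1:**
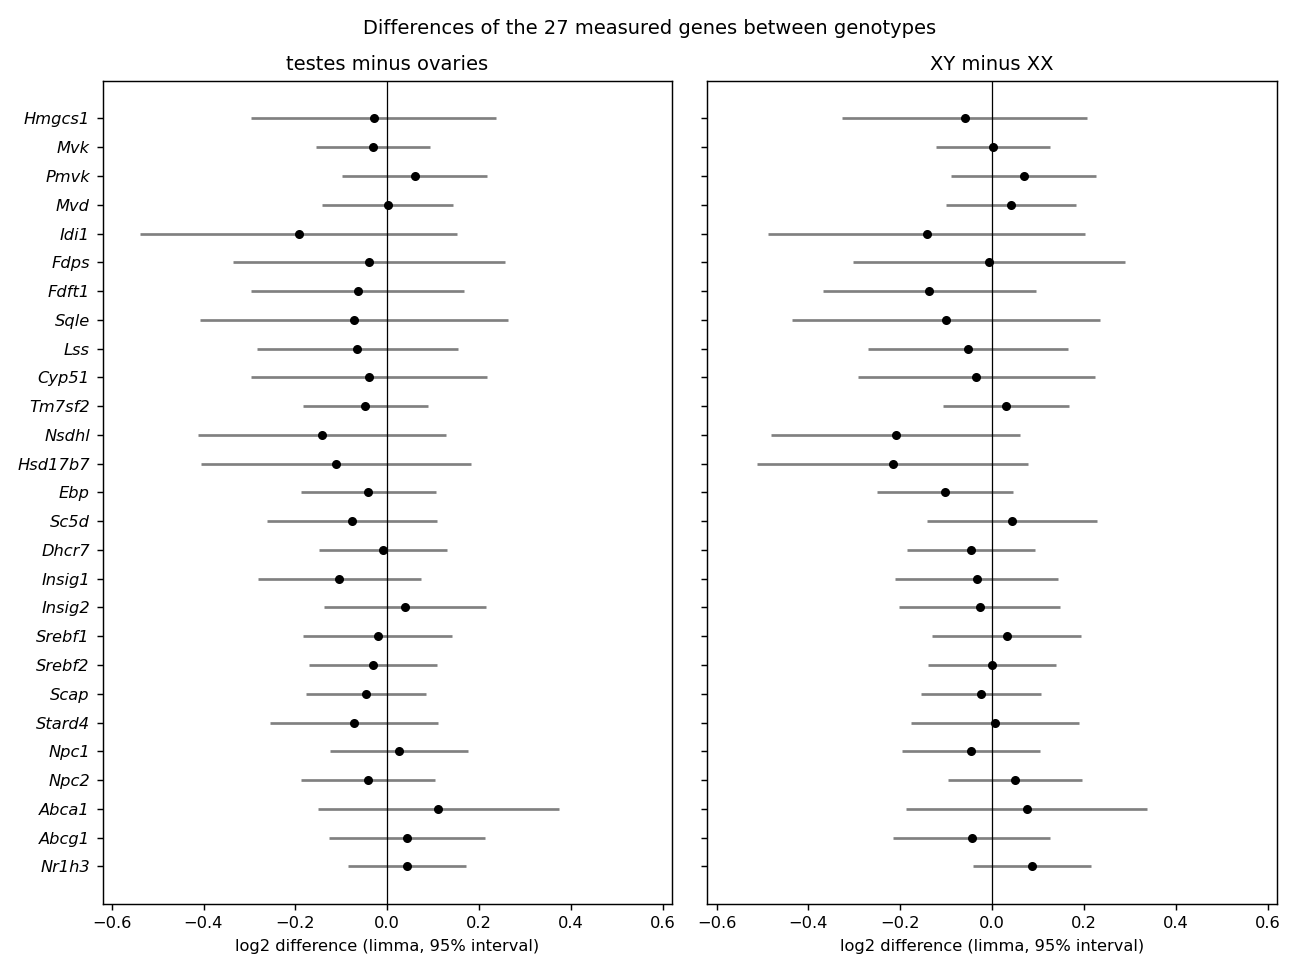
Log2 difference of each of the 27 genes between gonadal males and females (left) and between XY and XX (right). Points are limma estimates over 12 arrays and bars are 95% intervals, all of which include 0.

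The lowest unadjusted p for gonadal sex belonged to Insig1, an anchor that retains Scap in the endoplasmic reticulum when sterols are plentiful. Its signal in the 6 gonadal females had a lowest value of 1124, a median of 1266 and a highest of 1315, and in the 6 gonadal males 1039, 1128 and 1348. The male range enclosed the female one. The log2 difference of testes minus ovaries was -0.10 ± 0.08 (SE; limma unadjusted p = 0.226, adjusted p = 0.985 or above for each gene of the list). Within arrays 1 to 4, 5 to 8 and 9 to 12, it was 0.01, -0.21 and -0.09.

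Idi1 had signals of 416, 535 and 691 (lowest, median and highest) in gonadal females and of 365, 482 and 600.1 in gonadal males. The groups overlapped over most of their range, and the log2 difference was -0.19 ± 0.16 (SE), with an interval of -0.54 to 0.15. Nsdhl, an X-linked dehydrogenase that removes methyl groups from the sterol ring, had 582, 660.5 and 879.7 in females and 493.2, 656 and 787 in males, with a difference of -0.14 ± 0.12. For these genes the sign was not constant, since on arrays 1 to 4 males were above females by 0.04 for Idi1 and 0.11 for Nsdhl. The sizes also moved when single arrays were left out. Without XYM 9 the sex difference was -0.048 for Insig1, -0.089 for Idi1 and -0.043 for Nsdhl, and without XYM 1 it was -0.16, -0.30 and -0.24. Without XXF 7 it was -0.11 for Idi1 and -0.071 for Nsdhl, without XXF 11 it was -0.29 for Idi1, and without XXM 10 it was -0.091 for Nsdhl. Over the list, 20 of the 27 sex differences were below 0, with a median of -0.04, and all 10 of the sterol enzymes from Fdft1 to Dhcr7 were among them, with a median of -0.06. The median was 0.003 over all probe sets and -0.02 over named genes above the reference. Proliferation markers (9 of 9, median -0.10), cortical epithelial markers (9 of 9, -0.07) and endothelial markers (8 of 8, -0.08) were below 0 as well. None of the members' differences passed the test, and the part of cell composition in them was not tested.

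By chromosome complement, Nsdhl came first. The 5 XY arrays had signals of 493.2 (XYM 9), 582 (XYF 12), 642 (XYF 4), 649 (XYM 1) and 738 (XYF 8), and the 7 XX arrays had a lowest of 552, a median of 679 and a highest of 879.7. The groups overlapped, and XY minus XX was -0.21 ± 0.12 (SE, limma unadjusted p = 0.116). It was below 0 within each array set, at -0.18, -0.04 and -0.14. Without XYM 9 it was -0.11, and without XXF 7 it was -0.14.

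Hsd17b7, a ketosteroid reductase of the same demethylation complex, had 257 (XYM 9), 325 (XYF 12), 369.6 (XYF 4), 406 (XYM 1) and 435 (XYF 8) on XY arrays, and a lowest of 332, a median of 421 and a highest of 477 on XX arrays. Only XYM 9 and XYF 12 lay below all XX arrays, and the difference was -0.22 ± 0.14 (SE, limma unadjusted p = 0.135). Without XYM 9 it was -0.052, and without XYM 1 it was -0.38. Ebp, the X-linked sterol isomerase, had 494 (XYM 9), 548 (XYF 8), 548 (XYF 12), 563 (XYF 4) and 583 (XYM 1) on XY arrays, and 537, 575 and 649 (lowest, median and highest) on XX arrays. The overlap was wide, and XY minus XX was -0.10 ± 0.07 (SE), or -0.043 without XYM 9 and -0.16 without XYM 1. With array set as a block, Ebp had a difference of -0.12 ± 0.05 (SE, limma unadjusted p = 0.0368, adjusted p = 0.718). It was the 1 member under an unadjusted p of 0.05 in that fit, where 6.9% of all probe sets passed.

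The interaction, in which the sex difference of XY arrays is set against that of XX arrays, had its lowest p at Pmvk (0.26 ± 0.14 log2, limma unadjusted p = 0.1). Pmvk had 307 and 349 in XYM, 259, 291, 294 and 299.6 in XXM, 277, 286 and 299 in XYF, and 277, 286 and 339 in XXF. Both XYM arrays lay above all XXM and XYF arrays, and the signals were near the background reference. Without XYM 9 or XXF 11 the interaction was 0.17. Scap had an interaction of -0.11 ± 0.12, with signals of 1279 and 1495 in XYM, 1426 to 1527 in XXM, 1465 to 1519.7 in XYF and 1365 to 1505 in XXF. Lss, which closes squalene epoxide into lanosterol, had -0.16 ± 0.20, with 390.3 and 532 in XYM, 456 to 566 in XXM, 474 to 537 in XYF and 425 to 549 in XXF. In both genes XYM array 9 was the lowest of all 12 arrays. Without it the Scap interaction was -4.36e-06 and that of Lss turned to 0.061, and without the other XYM array they were -0.23 and -0.38.

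Array number went with these genes more than genotype did. The numbers in the sample titles give 3 sets: arrays 1 to 4 and arrays 9 to 12 each held 1 array of each genotype, and arrays 5 to 8 held XXM 5, XXM 6, XXF 7 and XYF 8. What the numbers stand for (a day, a scan, a litter) is not given in the sources used here. For 26 of the 27 genes, a larger share of the variance lay between the array sets than between the 4 genotypes, the exception being Scap. The median share of the enzymes was 56.9% between sets and 14.0% between genotypes. Over named genes above the reference it was 50.4% and 17.4%, and over all probe sets 45.3% and 18.6%. A larger share between sets was thus general to these arrays and not particular to the pathway. How many of all probe sets had this order was not counted. For Hmgcs1 the shares were 80.7% and 3.43%, and for Sqle 79.5% and 5.12%.

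Hmgcs1, the cytosolic HMG-CoA synthase, had signals of 898 on XYM 1, 968 on XXM 2, 861 on XXF 3 and 819 on XYF 4. On the second set they were 876 on XXM 5, 887.6 on XXM 6, 1045 on XXF 7 and 969.8 on XYF 8. On the third they were 714 on XYM 9, 721 on XXM 10, 688 on XXF 11 and 748 on XYF 12. All arrays of the third set lay below all 8 others, with a mean of 718 ± 24.9 (SD, n = 4) against 916 ± 73.2 (SD, n = 8), a log2 difference of -0.35. Each genotype showed it between its array of 1 to 4 and its array of 9 to 12 (XXF -0.32, XYF -0.13, XXM -0.43, XYM -0.33).

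**Figure D2:**
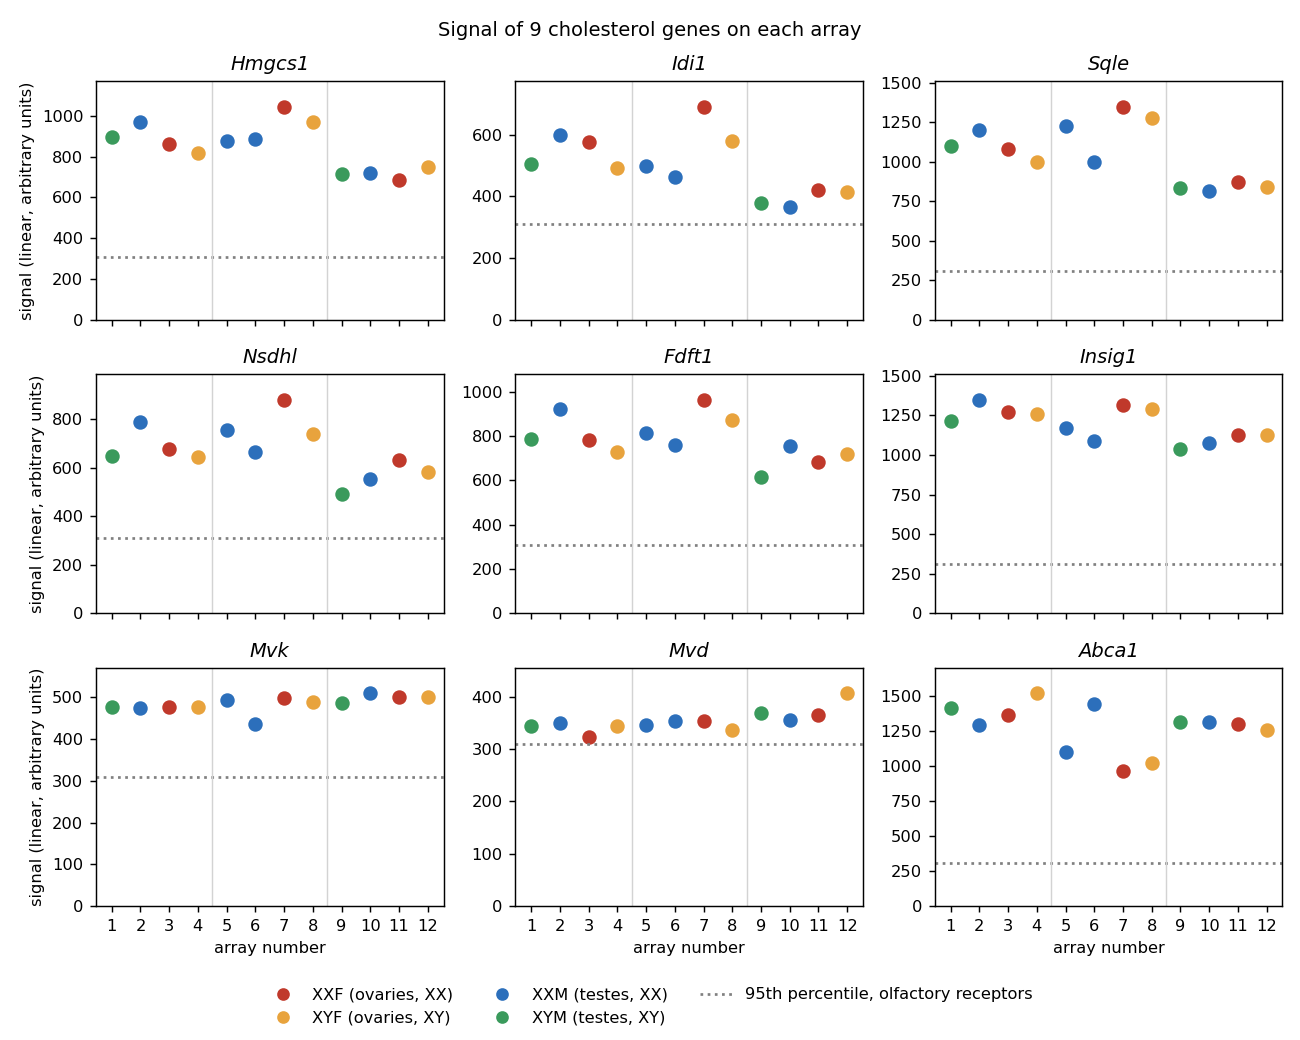
Signal (linear axis from 0) of 9 genes against array number, 1 point an array, coloured by genotype; grey lines divide the array sets and the dotted line is the background reference of 309.5. Hmgcs1, Idi1, Sqle and Nsdhl were lower on arrays 9 to 12 than on every other array, while Mvk and Mvd were not, and Abca1 was lowest on XXF 7.

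Idi1 had 505, 600.1, 577 and 493.5 on arrays 1 to 4, 499.8, 465, 691 and 579 on arrays 5 to 8, and 379, 365, 419.9 and 416 on arrays 9 to 12. Sqle, squalene epoxidase, had 1101, 1202, 1079 and 1000.4, then 1224, 997, 1348 and 1277, then 837, 815, 869.6 and 843. Both were lower on each array of the third set than on any other, by -0.47 for Idi1 and -0.45 for Sqle (log2, arrays 9 to 12 minus arrays 1 to 8). The same held for Nsdhl (-0.36), for Cyp51, the lanosterol demethylase (-0.30), and for Insig2, the other Scap anchor (-0.19). These 6 members, Hmgcs1 included, are 6 of 27, where 5.82% of all probe sets lay lower in this way. The sets follow the array numbers, which were taken up because arrays 9 to 12 were known to stand apart in these data, so the values are given with no test. On the first principal component of all probe sets (18.9% of the variance) arrays 9 to 12 scored 5.30 to 46.0, XXM 6 scored 17.4 and the other 7 arrays scored below 0.

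Further enzymes were lower on average with some overlap. Fdps, which makes farnesyl diphosphate and whose probe set may also read near-identical pseudogene copies, was at -0.33, Fdft1, squalene synthase, at -0.26, Lss at -0.26 and Hsd17b7 at -0.39. In same-genotype pairs of arrays 1 to 4 and arrays 9 to 12, 11 of the 16 enzymes were lower on the latter in all 4 genotypes, as were 16 of all 27 members. Of all probe sets, 21.7% were lower in all 4 pairs.

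The remaining enzymes of the early pathway did not follow. Mvk had 475.5 ± 1.1 (SD, n = 4), 478 ± 28.6 and 498 ± 9.77 in the 3 sets. Mvd, which decarboxylates mevalonate diphosphate, had 340.3 ± 11.4, 347 ± 8.47 and 374 ± 22.8, and was the 1 member of the 27 higher on all arrays of the third set than on every other, where 4.36% of all probe sets were. Pmvk (0.17 log2) and Tm7sf2, a sterol reductase (0.12), were also higher on the third set, and with Mvk (0.06) and Mvd (0.12) they were higher in all 4 same-genotype pairs, a direction shown by 32.9% of all probe sets. Ebp (-0.10), Sc5d, the lathosterol desaturase (-0.15), and Dhcr7, a late reductase (-0.06), differed less. The median of the 16 enzymes was -0.26, against 0.05 over all probe sets and -0.05 over named genes above the reference.

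**Figure D3:**
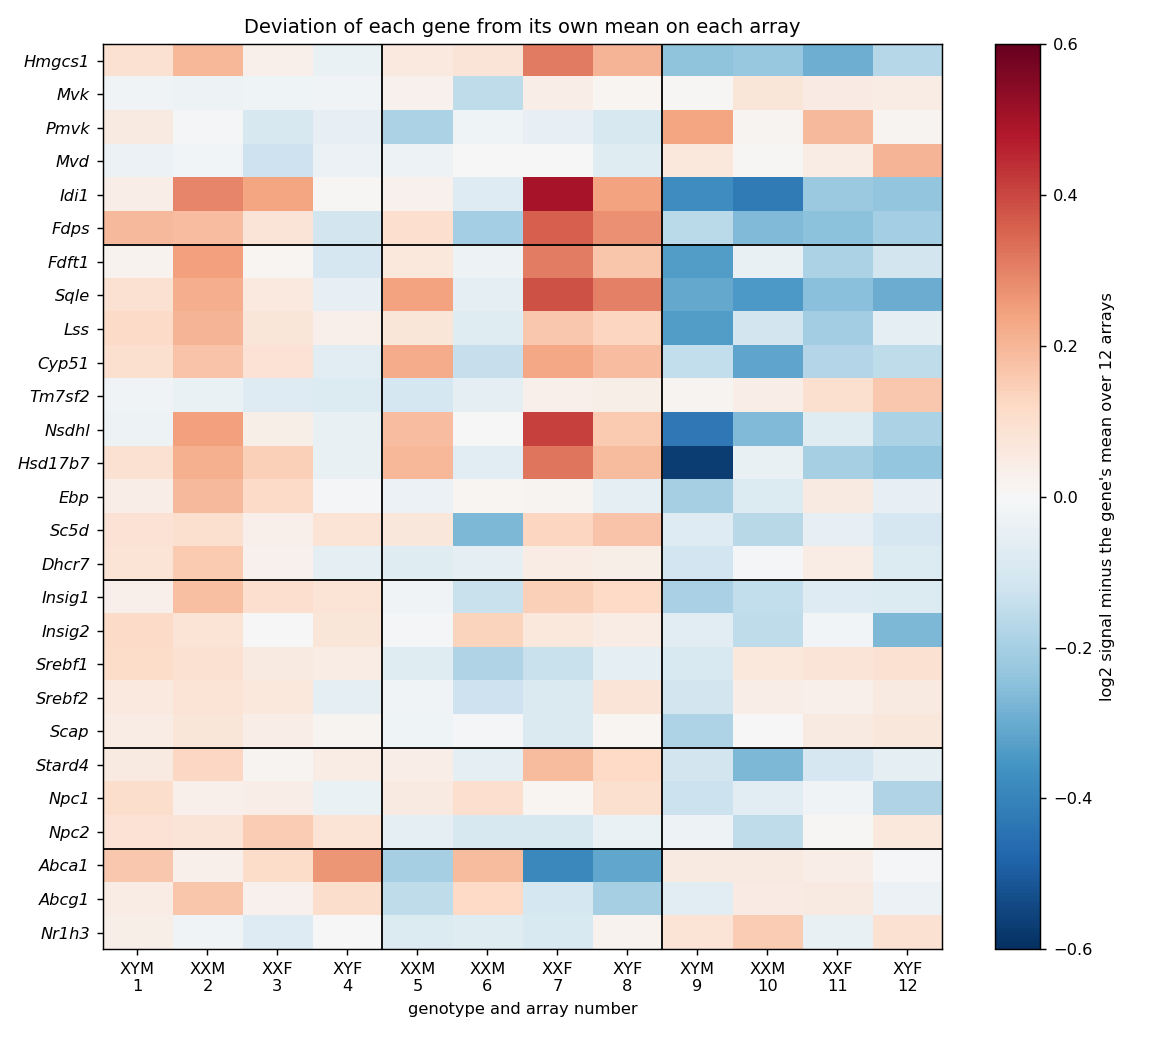
Colour shows the log2 signal of each gene on each array minus that gene's mean over the 12 arrays; rows are grouped by role and columns by array set. Most enzymes are blue on arrays 9 to 12 (Idi1 -0.47 and Sqle -0.45 against arrays 1 to 8), whereas Mvk, Mvd, Pmvk and Tm7sf2 are not.

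Among the regulators, Srebf2, the SREBP gene most tied to cholesterol synthesis, stood 0.00 (log2) apart between arrays 9 to 12 and the others, with a range of 2342 to 2708. Srebf1, more tied to fatty acid synthesis, was at 0.05, and Scap at -0.02. Srebf1 did differ between the first 2 sets, with 1329 to 1392 on arrays 1 to 4 and 1136 to 1240.3 on arrays 5 to 8, a log2 difference of -0.19. Insig1 had 1213, 1348, 1273 and 1259 on arrays 1 to 4, 1170.1, 1085, 1315 and 1290.1 on arrays 5 to 8, and 1039, 1073, 1126 and 1124 on arrays 9 to 12. The difference of the third set from the others was -0.19, and XXM 6 lay within the range of the third set. Of the carriers, Stard4, a cytosolic sterol transporter, was at -0.20, and Npc1 and Npc2, which hand cholesterol out of the lysosome, were at -0.15 and -0.04. The exporters Abca1 and Abcg1 were at 0.05 and 0.00 against arrays 1 to 8, but at -0.11 and -0.08 against arrays 1 to 4 alone, lower in 3 of 4 same-genotype pairs each. Their means were lowest on arrays 5 to 8. The receptor Nr1h3 was at 0.11.

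Cell type markers were set beside these values. The summed signal of the 13 thymocyte markers was 41236 to 46359 on arrays 1 to 4, 43130 to 45563 on arrays 5 to 8 and 41890 to 47692 on arrays 9 to 12. That of the 9 cortical epithelial markers was 35017 to 38110, 32035 to 37392 and 30945 to 35144, and that of the 9 proliferation markers 17850 to 21229, 19243 to 21874 and 18113 to 19794. The median log2 difference of arrays 9 to 12 was 0.01 for thymocyte, -0.05 for cortical epithelial, -0.01 for medullary epithelial, -0.17 for fibroblast, -0.01 for endothelial, -0.07 for macrophage, -0.10 for proliferation, 0.11 for adipocyte and 0.26 for erythroid markers, the last with 0 of 4 genes above the reference. Against arrays 1 to 4 alone the medians were -0.20 for macrophage, -0.12 for endothelial and -0.10 for medullary epithelial markers. Some sums did not overlap between sets. The medullary epithelial sum was 6914 to 7613 on arrays 1 to 4, above the 6124 to 6554 of arrays 5 to 8 and the 6142 to 6838 of arrays 9 to 12. The macrophage sum was 4535 to 5462 on arrays 1 to 4, above the 4168 to 4306 of arrays 5 to 8. On arrays 9 to 12 it was 4162 to 4537, which overlapped both other sets. The endothelial sum was 8380.0 to 9423 on arrays 5 to 8, against 9442 to 10106 on arrays 9 to 12. The part of cell composition in the enzymes' values was not tested.

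Co-variation between single arrays was measured as the slope of each gene's log2 signal on that of Hmgcs1, beside the genotype means, in limma over 35555 probe sets. Idi1 had the steepest slope of the members, 1.31 ± 0.15 (SE, limma adjusted p = 0.0333), and was the 1 member of 26 called, against 0.0366% of all probe sets (13). In limma the call was lost when array set entered as a block (adjusted p = 0.938), after a renewed quantile normalization and when any array but XYF 4 was left out, although the slope itself stayed between 1.24 and 1.40 in all the fits with 1 array left out. Next came Sqle (1.23 ± 0.17), Fdps (1.05 ± 0.17), Nsdhl (0.96 ± 0.16) and Fdft1 (0.79 ± 0.15), none of which passed adjustment (adjusted p from 0.062 to 0.07, limma). At an unadjusted p under 0.05, 12 of the 26 members had a positive slope, where 9.79% of all probe sets did, and 0 had a negative one, where 11.2% did. Those 12 were Idi1, Sqle, Fdps, Nsdhl, Fdft1, Hsd17b7, Cyp51, Lss, Stard4, Insig1, Sc5d and Insig2.

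**Figure D4:**
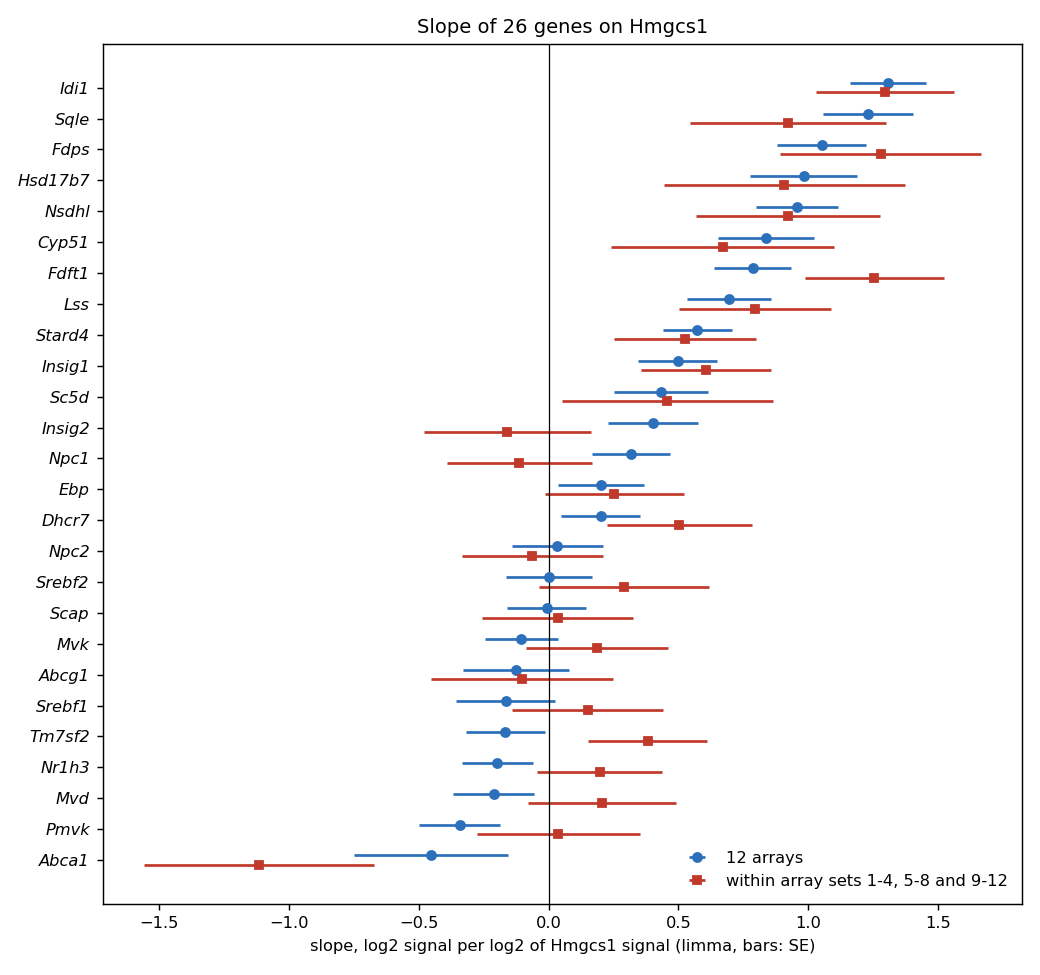
Slope of each gene's log2 signal on that of Hmgcs1 over 12 arrays (circles) and with a block for the 3 array sets (squares); bars are standard errors. Idi1 keeps a slope of 1.31 and 1.29, whereas Abca1 lies below 0 at -0.45 and -1.12.

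Within the array sets, the slopes of most of these enzymes were of similar size but less precise. With the block, 7 members had a positive slope at an unadjusted p under 0.05, where 1.55% of all probe sets did: Idi1 (1.29 ± 0.26), Fdft1 (1.25 ± 0.27), Fdps (1.28 ± 0.39), Sqle (0.92 ± 0.38), Nsdhl (0.92 ± 0.35), Lss (0.79 ± 0.29) and Insig1 (0.61 ± 0.25). Among 11271 named genes above the reference, ordered by the t value of this slope, Idi1 was at rank 1 and Fdft1 at rank 2. Insig2, by contrast, went from 0.40 to -0.16. With single arrays left out of the blocked fit the count lay between 3 and 9. It was 8 without XXF 11 and 9 without XXM 5, where 1.55% and 3.14% of all probe sets passed. It was 3 without XXF 7, XXF 3, XXM 2, XXM 6 or XYF 4, where 1.1% to 1.57% did.

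XXF 7 carried the highest signal of 8 of the 16 enzymes, namely Hmgcs1, Idi1, Sqle, Fdps, Fdft1, Nsdhl, Hsd17b7 and Cyp51, where 5.59% of all probe sets were highest on that array. On XXF 7 Abca1, which loads cholesterol onto apolipoproteins at the cell surface, had its lowest signal. Abca1 had 1416, 1293.5, 1367 and 1523 on arrays 1 to 4, 1104, 1448, 968.9 and 1023 on arrays 5 to 8, and 1315, 1316.5, 1301 and 1261 on arrays 9 to 12. It was thus lowest on XXF 7, XYF 8 and XXM 5, the set that held the highest Hmgcs1 signal. Over 12 arrays its slope was -0.45 ± 0.30, or -0.18 without XXF 7 and -0.27 without XYF 8. With the block its slope was -1.12 ± 0.44 (SE, limma unadjusted p = 0.037, adjusted p = 0.938), the 1 negative slope among the members at that level, where 3.74% of all probe sets had one. Nr1h3, which drives Abca1 in other tissues, had slopes of -0.20 over 12 arrays and 0.20 with the block, and Pmvk had -0.34 and 0.038, so their direction was not settled.

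Since arrays 9 to 12 stood apart in Hmgcs1, correlations are given over arrays 1 to 8 only, as a description of 8 arrays scaled together by the authors. Pearson's r with Hmgcs1 was 0.95 for Fdft1 (Spearman's rho 0.86), 0.85 for Nsdhl (0.67), 0.83 for Sqle (0.74), 0.80 for Idi1 (0.74), 0.78 for Fdps (0.83), -0.77 for Abca1 (-0.74) and 0.08 for Srebf2 (0.17). Without the 2 arrays farthest from the median of Hmgcs1, XXF 7 and XYF 4, r was 0.88 for Fdft1, 0.59 for Nsdhl, 0.62 for Sqle, 0.56 for Idi1, 0.55 for Fdps, -0.44 for Abca1 and 0.46 for Srebf2. Fdft1 changed least of these, Srebf2 moved away from 0, and the other 5 values came closer to it. Tm7sf2, which was not lower on arrays 9 to 12, nevertheless went with Hmgcs1 within arrays 1 to 8 (r = 0.82, and 0.75 without the 2).

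All pairs of members were compared after subtracting the mean of each array set. The median r of the 120 pairs of enzymes was 0.52, with 105 pairs above 0, and that of the 45 pairs of sterol enzymes was 0.56, with 44 above 0. The 15 pairs of mevalonate enzymes had a median of 0.10, since Pmvk and Mvd went with few of the others. Pairs of named genes above the reference had a median of 0.07. Marker lists reached higher values, at 0.71 for cortical epithelial, 0.64 for thymocyte and 0.73 for proliferation genes, so r values of this size also occurred among genes of other lists.

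The most opposed gene of the list was Abca1, picked out here after the pairs were seen. Its r was below 0 with 14 of the 16 enzymes, with a median of -0.71, and the 2 exceptions were Pmvk (0.17) and Mvd (0.06). Against Sqle it reached -0.96, the lowest r with Sqle of any of 11271 named genes above the reference, and against Fdps -0.93. The pattern did not rest on XXF 7, since over the 11 other arrays r with Sqle was -0.95, with Fdps -0.90 and the median over the enzymes -0.60. Abcg1, the other exporter, had an r of 0.67 with Abca1 and a median of -0.16 with the enzymes. Insig1, itself a target of SREBP, went with the enzymes at a median of 0.69 (15 of 16 above 0), whereas Insig2 had -0.16 (3 of 16 above 0). Stard4 had 0.54, with all 16 above 0, and Npc1 had -0.08.

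Srebf1, Srebf2 and Scap went together, at 0.88 between Srebf1 and Srebf2, 0.82 between Srebf1 and Scap and 0.71 between Srebf2 and Scap. With the enzymes, Srebf2 had a median of 0.44 and 14 of 16 above 0, and 0.67 without XXF 7, an array on which most enzymes were high and Srebf2 (2407) was not. Srebf2 had its lowest signal, 2342, on XXM 6. Sqle (997) and Fdps (771) were also the lowest of arrays 5 to 8 there, while Hmgcs1 (888) was not. Mvk, although it was not lower on arrays 9 to 12, had 0.58 with the other enzymes within the sets and 0.76 with Sqle. Its lowest signal, 435, was also on XXM 6, against 487 to 497 on the other arrays of 5 to 8. Mvk spanned only 474 to 477 on arrays 1 to 4, so its r may rest largely on XXM 6. No r without XXM 6 was computed. Pmvk (-0.02) and Mvd (0.08) had r values near 0. The r values describe 12 arrays, or 11, and carry no test.

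**Figure D5:**
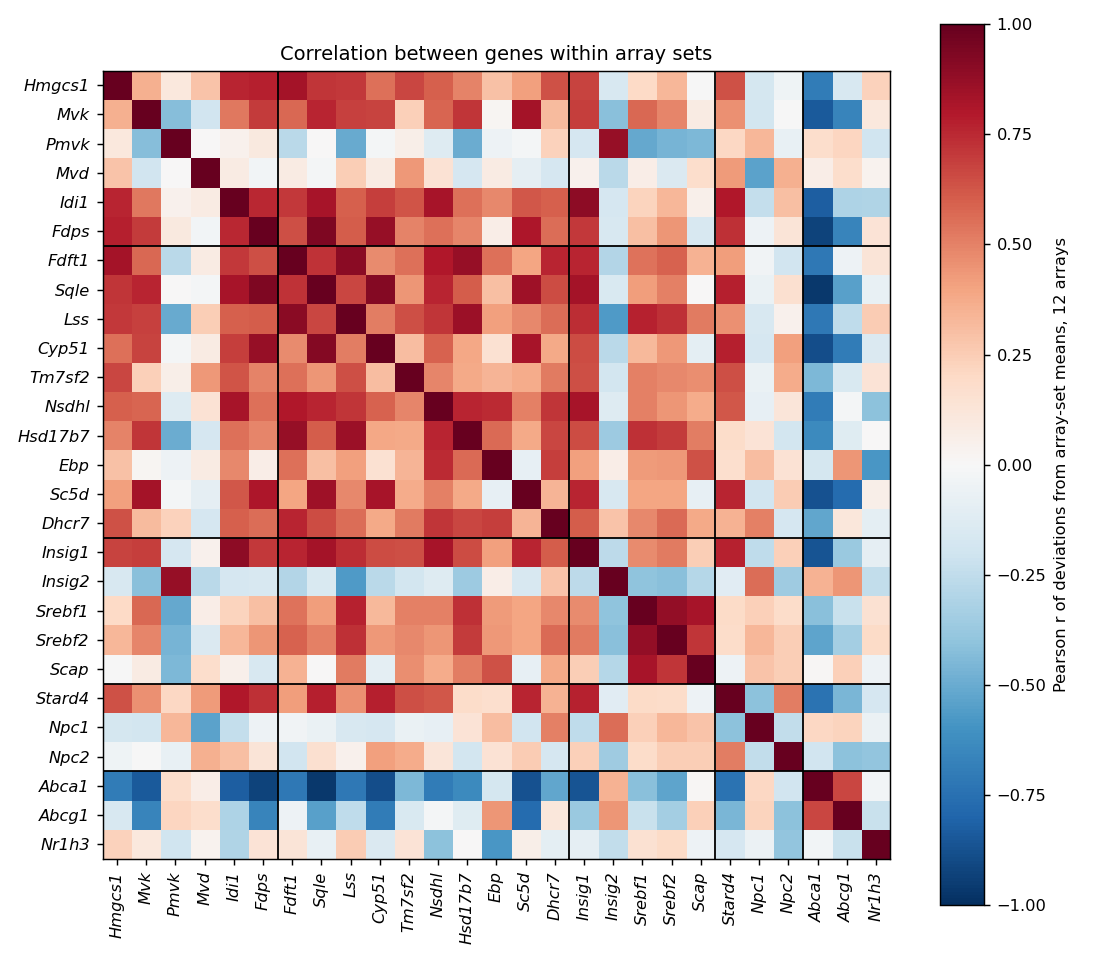
Pearson r between each pair of the 27 genes over 12 arrays after subtracting array-set means, with black lines between role groups. The sterol enzymes form a red block with a median r of 0.56, and Abca1 is blue against Hmgcs1 at -0.70.

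Outside the list, the genes whose slope on Hmgcs1 had the highest t were Rfc4, a clamp loader of DNA replication (1.69 ± 0.19), Cnmd, chondromodulin (1.54 ± 0.19), Slc25a5, an ADP/ATP carrier (1.42 ± 0.18), Cops6, a signalosome subunit (1.14 ± 0.15), and Hspd1, a mitochondrial chaperonin (0.98 ± 0.14). The first 4 passed adjustment in limma (adjusted p from 0.0333 to 0.0432) and Hspd1 did not (0.062). With the block, the proliferation markers had positive slopes in 9 of 9 genes with a median of 0.40, and the endothelial markers were below 0 in all 8, with a median of -0.70. Fibroblast markers (0 of 7 positive, median -0.36), erythroid markers (0 of 4, -0.97) and adipocyte markers (1 of 7, -0.54) lay on the same side of 0 as Abca1, as the endothelial ones did, and macrophage markers had a median of 0.09. The part of these cell types in the co-variation was not tested.

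Other genes of the pathway were read from a separate list, of which 16 of 20 were measured. None of the 16 was called in limma by sex or complement, and at an unadjusted p under 0.05 the counts were 0 and 1. That gene was Ch25h, which makes an oxysterol, with XY minus XX of 0.18 ± 0.06 (unadjusted p = 0.0182, adjusted p = 1.0) at a mean signal of 214, below the background reference. Msmo1, the methylsterol oxidase that acts beside Nsdhl and Hsd17b7, was picked out after its values were seen: it was at -0.46 on arrays 9 to 12 and had a slope on Hmgcs1 of 1.15 ± 0.19 over 12 arrays and 0.50 ± 0.33 with the block. The SREBP targets of fatty acid synthesis were measured in 12 of 12 genes, and none was called. Acss2, an acetyl-CoA synthetase, had the lowest p, with XY minus XX of -0.23 ± 0.07 (limma unadjusted p = 0.00649, adjusted p = 1.0). All 12 were lower on arrays 9 to 12, with a median of -0.16, and the 66 pairs had a median r of 0.39. Acaca (0.90, unadjusted p = 0.011) and Acly (0.89, unadjusted p = 0.009), which make malonyl-CoA and cytosolic acetyl-CoA, were the 2 of the 12 with a positive slope at that level in the blocked limma fit.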

How the data were processed

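RNA of day 7 thymic epithelium/stroma from 12 FCG samples was hybridized to Affymetrix mouse 1.0 ST arrays. The authors deposited linear intensity values of 35556 probe sets. Their notes to the archive list PLIER and the program Affymetrix Expression Console (1.1), but RMA with quantile normalization is what the methods describe, so the route to these values is uncertain; no step was undone. Summarisation of many probes compresses differences of dim genes. Array medians were 327.5 to 345.5, and correlations between arrays 0.961 to 0.980, with 0 identical arrays. The number of arrays limits the precision. Columns without a sample numbered 0. Symbols came from GEO's platform annotation (21789 probe sets with 1 symbol, 1621 with several, 12146 with none), and the brightest probe set stood for a gene; Idi1 and Fdft1 had a dimmer one each, correlated with it at 0.993 and 0.909.

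Log2 intensities were modelled by limma 3.58.1 (R 4.3.3) as 4 genotype means with a common variance, XYM having only 2 arrays. No floor was set, and 130 probe sets but 0 members had a value below 1 on any array. Tested were gonadal sex, chromosome complement, their interaction and an F test, with Benjamini-Hochberg adjustment over all probe sets and a threshold of 0.05. A slope on Hmgcs1 was added to the same model. Differences by array set had no test. Scripts were tested on simulated data, and figures were drawn with matplotlib 3.10.9. The alternatives comprised an offset of 16, quantile normalization once more, a mean signal of at least 200, array sets as a block, trend and robust moderation, array weights, an additive model, the methods' two-way ANOVA, the mean over probe sets and leaving out each array. The block with arrays left out, the count of positive slopes and the alternatives of the array-set difference were added after seeing the data.

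Members and lists were chosen with earlier results of these data known. Named by rule were the 3 genes with the lowest p in each genotype test, Hmgcs1, the 5 highest and 3 lowest slope t values among members, the 5 highest outside them, and from each other list up to 3 genes with the lowest p by sex or complement; Msmo1, Acaca, Acly and the further members were named for completeness or after their values were seen. Promoter windows were from RefSeq.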

Additional observations from a re-analysis of the deposited data

Results flagged for a closer look

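Of 81 groups examined, 3 had 1 array far from the rest, and these 3 were of gonadal females (6 arrays). If about 1 group in 20 is set apart with no real outlier, 3 of 81 is not an excess. The groups share arrays and many of the genes go together, so they are not independent. Whether 3 of 81 differs from chance was not tested. Pmvk was at 338.5 on XXF 11, and the nearest other female array was at 299. Insig2 was at 667.5 on XYF 12, with the next at 796. Scap was at 1365 on XXF 7, with the next at 1465. Differences between groups gave no such result.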

How the results depend on the processing

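The counts of members called by gonadal sex, complement, interaction or any genotype difference were 0 under every alternative run. For co-variation with Hmgcs1, 1 member was called, where 0.0366% of all probe sets were. The count was 0 after a renewed quantile normalization and 0 with array sets as a block. It was 4 with an offset of 16, 9 with a mean signal of at least 200 and 8 with trend and robust moderation. In these 3 fits calls also rose over all probe sets tested, to 0.374%, 3.16% and 2.41%. With single arrays left out it ranged from 0 to 1, and it was 0 in each blocked fit with an array left out; the cause was not tested. Members with a positive slope at an unadjusted p under 0.05 numbered 12, and from 10 to 13 in the alternatives without a block. The share of all probe sets tested was 9.79%, and 5.82% to 14.3% in those alternatives. With the block the members numbered 7 (1.55% of all probe sets), and 3 to 9 with an array left out as well (1.07% to 3.14%). Directions turned for the Lss interaction without XYM replicate 9 (0.061, in a range of -0.38 to 0.061 with single arrays left out) and, with the block, for the slopes of Nr1h3 (0.20) and Pmvk (0.038). The median enzyme difference of arrays 9 to 12 ran from -0.29 to -0.21 (-0.24 without XXF replicate 7). Genotypes share no replicate number, so replicate number was not used as a block; array sets were. Signals of Pmvk and Nr1h3 near the background reference limit what their differences can show.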
